A study of Mus musculus with 3 samples.

Results

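This section is about 9 genes by which a mouse cell detects viral RNA and answers type I interferon, read in embryonic stem (ES) cells of the R1 line, derived from mice of strain 129. They are the sensors Tlr3, Ifih1 and Ddx58, the adaptor Mavs, the kinase Tbk1, the transcription factor Irf3, the receptor chains Ifnar1 and Ifnar2, and the receptor-bound kinase Tyk2. The members are all genes of this list whose symbol stood alone on a probe set, and all 9 were found among 19057 named genes, each with 1 probe set. The series holds 3 biological repeats of R1 in 1 group hybridised to Affymetrix Mouse Gene 1.0 ST arrays, whose probes lie along the exons of each transcript. There is no treated, infected or mutant sample, and the labels do not say how the cells were cultured. The values therefore show which genes gave signal and how far the repeats differed.

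Viral RNA is recognised in the endosome by the Toll-like receptor encoded by Tlr3 and in the cytosol by the helicases MDA5 (Ifih1) and RIG-I (Ddx58). The helicases pass the signal to the mitochondrial protein encoded by Mavs, the kinase encoded by Tbk1 then phosphorylates the factor encoded by Irf3, and interferon genes are switched on. Secreted type I interferon binds the receptor of Ifnar1 and Ifnar2, which signals through Tyk2 and Jak1 to STAT proteins, and the cytosolic sensors are themselves among the genes that interferon induces. Mouse ES cells are known for a weak interferon response to viral RNA.

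The arrays had median intensities of 47.8, 46.7 and 46.8 over their probe sets. Values are log2 intensity, as mean ± SD over the 3 repeats (n = 3) where one value is given. Background was set on each array by 1170 receptor genes of smell and pheromone neurons, and a gene above their 95th percentile counts as above background there. This limit lay at log2 4.72, 4.60 and 4.61 in repeats 1, 2 and 3. A second, higher limit came from 126 genes of other families not used in ES cells (taste receptors, defensins, keratin-associated proteins and major urinary proteins), at 6.11, 6.14 and 6.05. ES cell markers were present, with Pou5f1 at 11.77 ± 0.12, Sox2 at 10.78 ± 0.017 and Nanog at 11.00 ± 0.20, and all 7 measured markers passed both limits. Precision is limited by there being 3 arrays.

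Of the 9 genes, 7 were above background on all 3 arrays, against 71.4% of genes outside the receptor families. The 7 were also above the limit when 2 of 3 arrays were enough (73.6% of those genes) and above the 99th percentile of the receptor genes on all 3 (55% of them). The share among the 9 lies near that of all genes and is no result about them as a set. The adaptor, the kinase, the factor, both receptor chains, Tyk2 and 1 of the 3 sensors gave signal. The same 7 passed the higher limit on all 3 arrays, against 44.4% of genes outside both kinds of family. The other two, Tlr3 and Ifih1, are sensors. A value below the limit does not show that a gene is silent. Probes differ between genes, so no gene's level is ranked against another's.

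**Figure D1:**
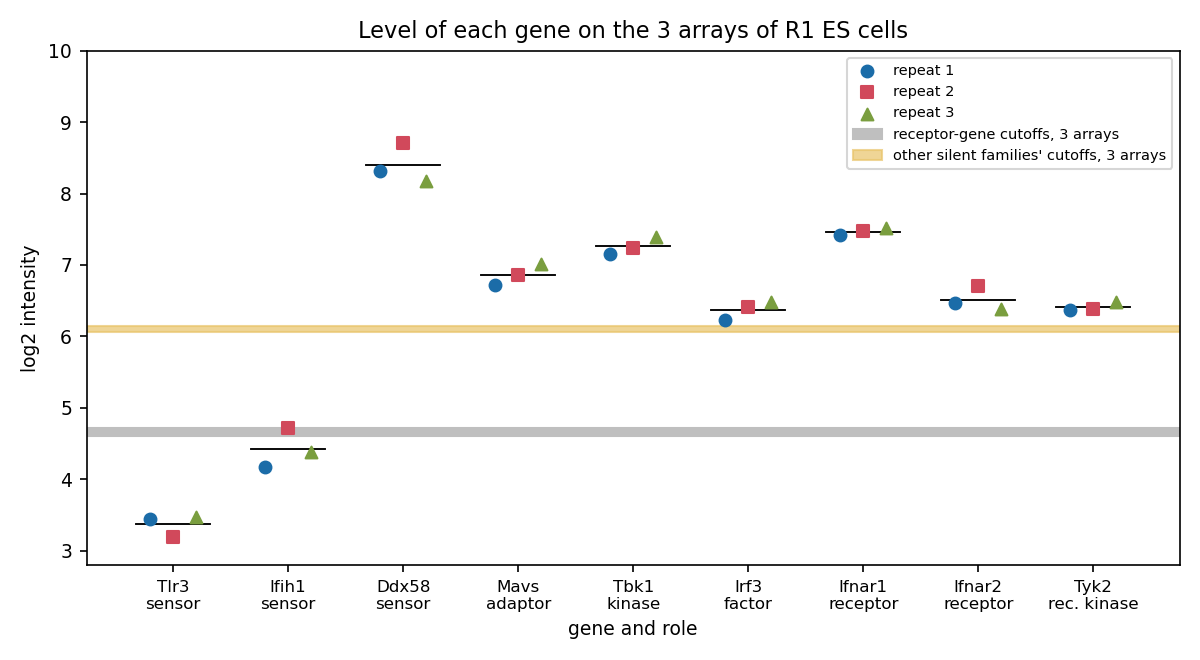
Log2 intensity (y axis) of each of the 9 genes (x axis) in repeats 1, 2 and 3 of R1 ES cells, with a line at the mean; the grey and yellow bands span the 2 background limits over the arrays. Tlr3 lies below the lower limit, Ifih1 around it, and the other 7 genes lie above both.

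Tlr3, the endosomal sensor of double-stranded RNA, read 3.45, 3.19 and 3.47 in repeats 1, 2 and 3. All 3 values lay below the limit, with log2 differences from it of -1.27, -1.41 and -1.13. Its intensities were 10.9, 9.14 and 11.1, so its differences between repeats lie within background and are not read further.

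Ifih1, whose product MDA5 binds long double-stranded RNA, read 4.18, 4.71 and 4.38. Repeat 2 was the highest and passed the limit by 0.11, while repeats 1 and 3 lay below it, at differences of -0.54 and -0.23. No array passed the higher limit. As with Tlr3, no fold is given, since repeats 1 and 3 lay within background. The gene entered the variance test through repeat 2 alone and did not pass it (adjusted p = 0.936, limma variance test, described beside Ddx58).

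Ddx58, whose product RIG-I binds the ends of short viral RNAs, was the sensor with clear signal. It read 8.31, 8.71 and 8.17 (intensities 318, 420.2 and 288), which is 3.56 to 4.11 above the limit. Repeat 2 was the highest, 0.47 above the mean of the other two (1.39-fold). Its SD of 0.28 was the largest of the 9 genes, and 97.7% of 1901 genes within 0.5 log2 units of its mean had a smaller one. In the limma variance test, which sets the variance of a gene over the 3 arrays against the trend over 13596 genes, Ddx58 did not pass after Benjamini-Hochberg adjustment (adjusted p = 0.537, unadjusted p = 0.0108). Its value in repeat 3 minus that in repeat 1 was -0.14. Over the alternatives of that test its adjusted p ranged from 0.507 to 0.997.

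The promoters of the 3 sensors and of both receptor chains are shown here because the sensors differed in whether they gave signal, and because both interferon receptor genes are compared further on. Each window runs from 250 bases before the annotated start to 50 after it, 5′ to 3′ on the gene's strand, from RefSeq on GRCm38.p6, which had an entry for all 9 genes. Capitals mark letters of the interferon-stimulated response element (ISRE) core, which is GAAA, any 2 bases and GAAA again, of the closer spaced GAAANGAAA, or of the gamma-activated sequence TTCNNNGAA, the pattern bound by STAT dimers, searched on both strands. A match is a description of letters and not a bound site. The windows are chr8:45410331-45410630 (- strand) for Tlr3, chr2:62646206-62646505 (- strand) for Ifih1, chr4:40239776-40240075 (- strand) for Ddx58, chr16:91484965-91485264 (+ strand) for Ifnar1 and chr16:91372533-91372832 (+ strand) for Ifnar2. For Tlr3, Ifnar1 and Tyk2 the gene table of the same assembly also lists an earlier start, so their windows, and the letter counts in them, belong to another transcript's start.
Tlr3: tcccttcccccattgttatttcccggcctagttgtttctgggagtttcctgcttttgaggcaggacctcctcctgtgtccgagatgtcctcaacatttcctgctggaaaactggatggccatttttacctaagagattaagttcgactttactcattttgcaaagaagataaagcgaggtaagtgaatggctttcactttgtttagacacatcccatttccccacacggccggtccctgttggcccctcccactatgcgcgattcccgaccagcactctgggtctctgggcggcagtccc
Ifih1: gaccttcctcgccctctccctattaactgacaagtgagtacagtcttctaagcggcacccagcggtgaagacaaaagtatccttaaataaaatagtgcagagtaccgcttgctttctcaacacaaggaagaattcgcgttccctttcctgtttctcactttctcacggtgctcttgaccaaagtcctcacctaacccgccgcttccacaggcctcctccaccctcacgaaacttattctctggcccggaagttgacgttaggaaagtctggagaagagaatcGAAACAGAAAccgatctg
Ddx58: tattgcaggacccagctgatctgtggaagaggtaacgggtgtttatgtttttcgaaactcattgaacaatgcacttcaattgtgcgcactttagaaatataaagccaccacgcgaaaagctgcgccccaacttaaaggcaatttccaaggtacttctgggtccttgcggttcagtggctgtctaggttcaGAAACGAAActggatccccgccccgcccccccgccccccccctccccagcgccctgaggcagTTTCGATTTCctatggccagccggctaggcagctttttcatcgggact
Ifnar1: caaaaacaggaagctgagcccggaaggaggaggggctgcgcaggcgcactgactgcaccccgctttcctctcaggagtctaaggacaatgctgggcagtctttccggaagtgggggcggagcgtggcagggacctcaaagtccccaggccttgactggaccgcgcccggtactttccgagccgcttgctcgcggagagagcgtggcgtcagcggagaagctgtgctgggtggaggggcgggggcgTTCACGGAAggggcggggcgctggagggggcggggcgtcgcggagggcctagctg
Ifnar2: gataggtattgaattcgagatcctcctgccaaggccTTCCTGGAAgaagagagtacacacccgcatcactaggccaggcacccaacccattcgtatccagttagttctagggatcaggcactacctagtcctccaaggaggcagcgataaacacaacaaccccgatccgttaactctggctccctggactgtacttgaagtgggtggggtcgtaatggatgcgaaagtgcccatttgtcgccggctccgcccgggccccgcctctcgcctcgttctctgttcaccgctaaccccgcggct

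The ISRE core was found in 2 of the 9 windows, those of Ifih1 and Ddx58, against 3.44% of 32851 promoter windows in the table. In Ifih1 it lay 33 to 42 bases after the start on the gene's strand, and in Ddx58 3 to 12 bases after the start on the opposite strand. The Ddx58 window also held the closer spaced form, at -60 to -52 from the start and with no overlap with the other, which 3.17% of all windows hold. The Tlr3 window held none of the 3 patterns. TTCNNNGAA was found in the windows of Ifnar1 and Ifnar2, against 8.30% of all windows. The patterns were chosen with the sequences and values in view.

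**Figure D2:**
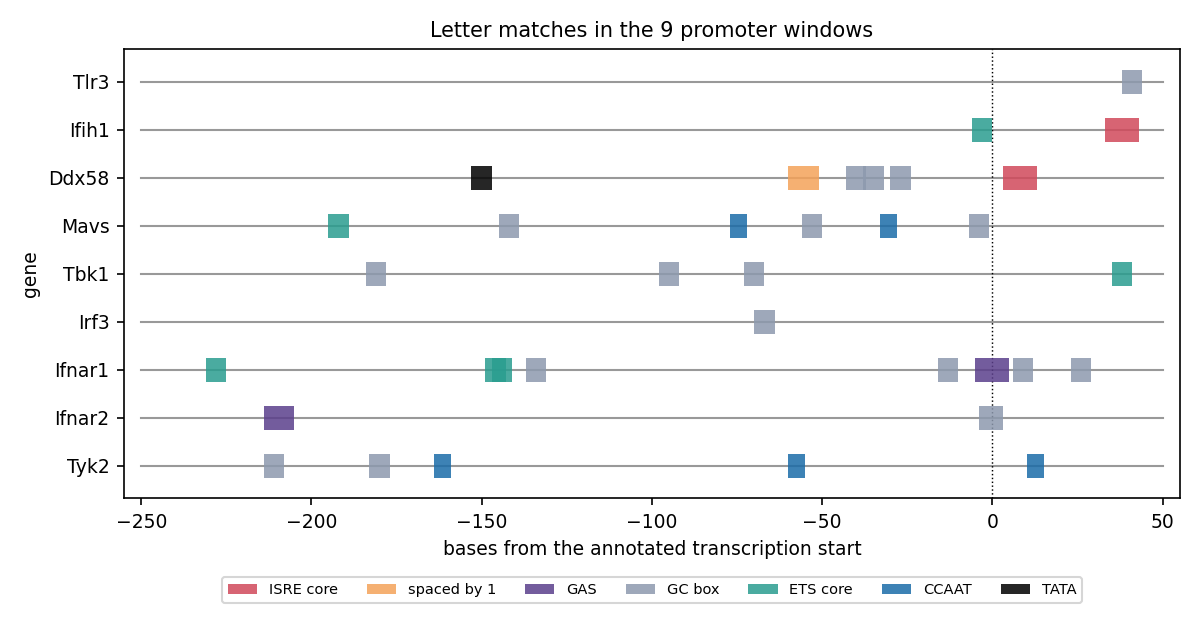
Positions of letter matches (bars) in the promoter windows of the 9 genes (rows), in bases from the annotated start (x axis, 250 before to 50 after). The ISRE core lies in 2 windows, Ifih1 and Ddx58, while the GC box GGGCGG lies in 8 of 9.

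CG dinucleotides and other patterns were counted in all 9 windows. Tbk1 had 37 CG dinucleotides, Ifnar1 26, Tyk2 23, Mavs 19 and Irf3 and Ifnar2 18 each. The 3 sensors had the fewest, with 10 in Tlr3, 14 in Ifih1 and 15 in Ddx58, while the median of all windows was 7. The GC box GGGCGG, a common element of promoters without a TATA box, was found on either strand in 8 of the 9 windows, the exception being Ifih1, against 35.7% of all windows. Neighbouring matches of GGGCGG in Ddx58 share a base, and neighbouring matches of CCGGAA in Ifnar1 overlap. CCAAT was found in Mavs and Tyk2 alone (37.4% of all windows), CCGGAA in Ifih1, Mavs, Tbk1 and Ifnar1 (14.9%), and TATAAA in Ddx58 alone (13.6%), at -153 to -148 from the start.

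Mavs, the adaptor shared by both helicases, read 6.72, 6.85 and 7.02, clearing the higher limit by 0.62 to 0.96. Repeat 3 was the highest, 0.29 above repeat 1 (1.22-fold), and Mavs did not pass the limma variance test (adjusted p = 0.997). Tbk1, the kinase that activates Irf3, read 7.15, 7.24 and 7.39, with repeat 3 again the highest and 0.24 above repeat 1. Irf3, the factor that drives the first wave of interferon genes, read 6.22, 6.41 and 6.48. It cleared the higher limit by 0.12 to 0.43, the smallest margin being in repeat 1. Adaptor, kinase and factor thus all gave signal, with ranges over the repeats of 0.29, 0.24 and 0.26.

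The receptor was read through both of its chains. Ifnar1 was the most even of the 9 genes, at 7.42, 7.47 and 7.52, with an SD of 0.048. Its widest gap was 1.07-fold, and 16.4% of 2521 genes of like level had a smaller SD. Ifnar2, the chain that binds interferon most tightly, read 6.46, 6.70 and 6.38, with repeat 2 the highest and 0.28 above the mean of the others (1.21-fold). Tyk2, the kinase held by Ifnar1, read 6.37, 6.38 and 6.48, an SD of 0.061. Neither Ifnar2 (adjusted p = 0.992) nor Ifnar1 or Tyk2 (adjusted p = 0.998 for both) passed the limma variance test.

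In the gene table, Ifnar2, Il10rb, Ifnar1 and Ifngr2 follow each other on chromosome 16, a cluster of cytokine receptor genes. Il10rb, a chain shared by the receptors of interleukin 10 and type III interferon, read 4.28, 4.81 and 4.57 and passed the limit in repeat 2 alone. Ifngr2, a chain of the interferon gamma receptor named here for its place, read 6.99, 7.16 and 7.01 and gave signal on all arrays. Neighbours in this cluster thus lay on either side of the limit. Ifnar2 and Ifngr2 were highest in repeat 2, as were 36.9% of all genes above background on all arrays, and Ifnar1 was not. The order of the repeats is not read for Il10rb, whose other values lay within background.

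Among the 7 genes above background, 2 were highest in repeat 2 (Ddx58 and Ifnar2) 5 in repeat 3 and 0 in repeat 1, against 36.9%, 33.1% and 30% of all genes above background on all 3 arrays. The 5 (Mavs, Tbk1, Irf3, Ifnar1 and Tyk2) were also lowest in repeat 1, a pairing seen in 15.5% of those 12820 genes. After quantile normalization Ifnar1 and Tyk2 were lowest in repeat 2, and the pairing then held for Mavs, Tbk1 and Irf3. The median difference of the 7 genes from the other repeats was -0.13 in repeat 1, 0.0021 in repeat 2 and 0.10 in repeat 3, against -0.011, 0.0064 and 0.0019 over all genes. Their median SD was 0.13, against 0.10. A range above 0.4 was seen in 1 of the 7, Ddx58, against 9.88% of genes.

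**Figure D3:**
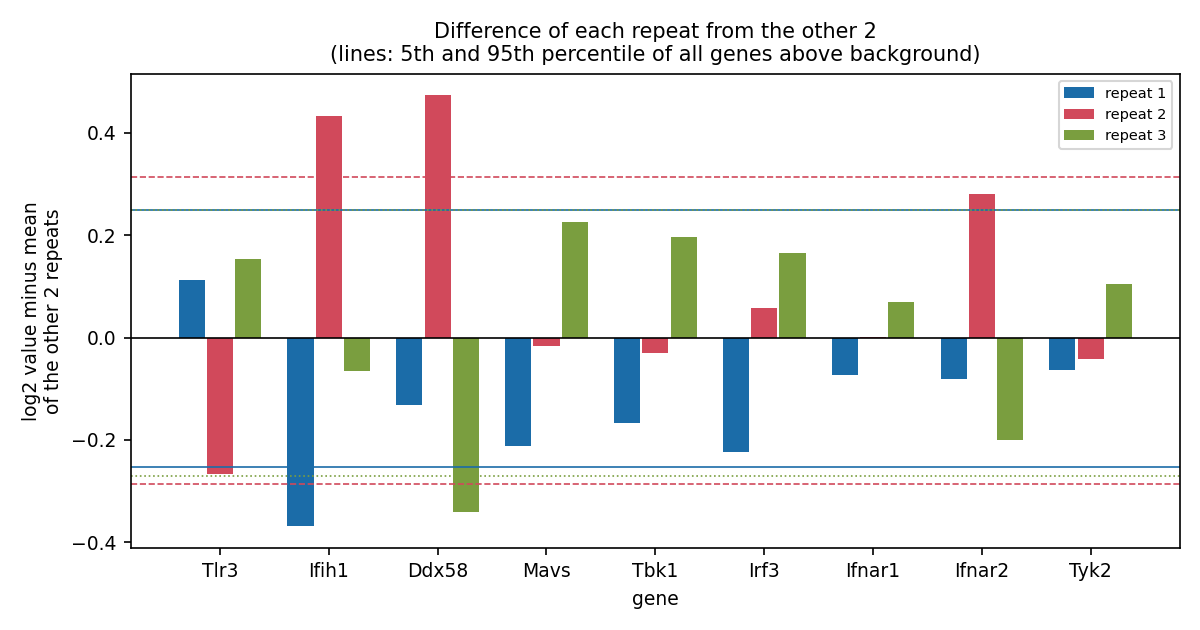
Log2 value of each repeat minus the mean of the other 2 (y axis) for the 9 genes (x axis), with lines at the 5th and 95th percentile of that difference over all genes above background. The repeat 2 bar of Ddx58 (0.47) passes the upper line of repeat 2 at 0.31, and that of Ifnar2 (0.28) does not. The repeat 3 bar of Ddx58 (-0.34) passes the lower line of repeat 3 at -0.27. The bars of Tlr3 and Ifih1 rest on values below background and are not read against the lines.

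None of the 8 members tested passed the limma variance test, with adjusted p from 0.537 to 0.998, while 22 of 13596 genes (0.162%) passed. At an unadjusted p under 0.05 the count was 1 of 8, Ddx58, against 5.75% of all genes. Ifih1 made it 2 without the intensity trend, with all named genes, after quantile normalization and after median centring. Without repeat 2 it was 0, with an unadjusted p of 0.347 for Ddx58 in the limma variance test. The labels call the repeats biological and say nothing further. These p-values set a gene's spread over these cultures or extracts against the trend over genes. With 1 array per repeat, differences between arrays are part of that spread. By the smallest Euclidean distance between deviations from a gene's own mean over the 3 arrays, the genes most like Ddx58 were Dpm1 (0.0089), Lonrf2 (0.0096), Myc (0.012), Scmh1 (0.016) and Ltbp2 (0.017). Lonrf2 passed background in repeat 2 alone (4.49, 4.91 and 4.36), so the order of its repeats is not read. In all, 168 of 19056 other genes, those within background included, lay within 0.1 of Ddx58, so 3 arrays single out few patterns.

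Of 21 measured genes of RNA sensing and its adaptors, 19 were above background on all arrays and 15 passed the higher limit, against 71.4% and 44.4% of all genes. The same shares apply to the counts of each list that follows, and no list was tested against them. Trim25, a ubiquitin ligase that activates RIG-I, read 8.96 ± 0.14, and Rnf135, a ligase with a like role, read 5.19 ± 0.090, below the higher limit. The exceptions were Dhx58 at 4.25 ± 0.16, whose product LGP2 is the third RIG-I-like helicase, and the interferon-induced helicase Ddx60 at 4.04, 4.37 and 4.19. Zc3hav1, an antiviral zinc finger protein, had the largest spread, at 5.90, 6.73 and 5.82, with repeat 2 0.87 above the others and an adjusted p of 0.226 in the limma variance test. Of 3 RIG-I-like helicases, then, Ddx58 alone was above background on all arrays.

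All 15 measured restrainers of the pathway were above background, and 12 passed the higher limit. Nlrx1, a mitochondrial protein that binds MAVS, read 5.27 ± 0.16, the ubiquitin ligase gene Rnf125 6.66 ± 0.21 and the deubiquitinase gene Cyld 6.14 ± 0.17. The 16 measured kinases, scaffolds and factors that act beside Tbk1 and Irf3 were all above background, while 8 of them passed the higher limit. Ikbke, the kinase most like Tbk1, read 5.19 ± 0.16 and Tank, a scaffold of both kinases, 5.49 ± 0.16. Neither passed the higher limit on any array, whereas Ikbkb, of the NF-kappa-B pathway, read 7.02 ± 0.13. Irf7, the interferon-induced relative of Irf3, read 5.22, 6.03 and 4.97. Its repeat 2 value was 0.94 above the others, and it did not pass the limma variance test (adjusted p = 0.162).

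Other Toll-like receptors resembled Tlr3 in part. Of 14 measured receptors and adaptors 9 were above background and 1, which is not a Toll-like receptor, passed the higher limit. Below background on every array were Tlr1 (3.25 ± 0.13), Tlr4 (3.03 ± 0.060), Tlr6 (3.87 ± 0.10) and the accessory genes Cd14 (4.18 ± 0.11) and Ly96 (3.31 ± 0.14). Tlr2 read 5.52 ± 0.16, Tlr9 5.49 ± 0.052 and Tlr12 4.83 ± 0.14, above the lower limit and below the higher on all arrays. Unc93b1, which carries the nucleic acid receptors to the endosome, read 5.23 ± 0.18, also between the limits.

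Interferon genes themselves gave little signal. Of 15 measured ligands 5 were above background on all arrays (Ifna2, Ifna5, Ifna14, Ifnz and Ifnl2) and none passed the higher limit on all 3. Ifnb1, the first type I interferon made after RNA sensing, read 3.75 ± 0.15 and Ifna4 3.37 ± 0.16, both below background on every array. Ifna2 read 5.58 ± 0.14, Ifna5 5.66 ± 0.12, Ifna14 5.08 ± 0.094 and Ifnz 5.45 ± 0.056. Members of these families resemble each other closely, so single values are uncertain. Ifnl2 read 6.66, 6.08 and 6.46 and was lowest in repeat 2.

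Behind the receptor, 16 of 18 measured signalling genes were above background and 11 passed the higher limit, against 71.4% and 44.4% of all genes. Jak1, the kinase held by Ifnar2, read 8.26, 8.44 and 7.93. Stat2 read 6.54 ± 0.21 and Irf9 6.15, 6.88 and 6.60, and the products of both join the complex that binds the ISRE. Jak2 read 5.92 ± 0.32. Usp18, whose product shuts off signalling at Ifnar2, read 4.64, 6.34 and 4.70, passed background on 2 arrays and varied beyond the trend (adjusted p = 0.0112, limma variance test). Its adjusted p was 0.196 without repeat 1, 0.997 without repeat 2 and 0.0943 without the intensity trend.

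Many genes that interferon induces were highest in repeat 2. Of 27 interferon-induced genes above background on all arrays, 17 had their highest value there, against 36.9% of all genes. Their median difference was 0.36, against 0.0064 over all genes. Other lists were also often highest in repeat 2, with smaller median differences. These were RNA sensing (12 of 19, 0.10), restrainers (9 of 15, 0.078), kinases and factors (8 of 16, 0.089) and receptor signalling (8 of 16, 0.095). The counts were 4 of 9 for DNA sensing, 1 of 9 for Toll-like genes and 2 of 5 for ligands. Of 32 interferon-induced genes tested, 6 passed the limma variance test, Usp18 among them, against 0.162% of all genes. The count was 0 without repeat 1, 1 without repeat 2, 4 without repeat 3 and 0 without the intensity trend. It was 3 without the robust prior or after quantile normalization. With all named genes or the highest probe set it was 5, and after median centring 8. Differences over 2-fold between repeat 2 and repeats 1 and 3 were seen in 24 and 28 of 12820 genes above background. Between repeats 1 and 3 there were 0. Genes of this list, such as Irgm1, are among them. The correlation over genes was 0.995 between repeats 1 and 2 and between repeats 2 and 3. It was 0.997 between repeats 1 and 3. Of the 7 ES cell markers 5 were highest in repeat 2, with summed intensities of 11644, 12886 and 11402 in repeats 1, 2 and 3. The part of these differences between arrays in the list's values was not tested. Irgm1, a GTPase gene, read 5.42, 7.48 and 5.74, with repeat 2 the highest. Ddx58, which interferon also induces, was not in this list and did not pass the variance test. Mx1 (3.31 ± 0.082) and Mx2 (3.47 ± 0.18), classical antiviral GTPase genes, were below background on every array. Of 19 measured genes that process, edit or answer RNA with paired strands, 15 were above background on all arrays and 11 passed the higher limit. Of the 15, 8 were highest in repeat 2, with a median difference of 0.074. In the limma variance test 0 of 16 passed, and 4 after median centring. Eif2ak2, the kinase PKR, read 6.49, 7.65 and 6.65 and Oas2 5.60, 6.72 and 5.47. Each had an adjusted p of 0.0577 in that test. Ago4 (3.77 ± 0.041), Ifit2 (3.68 ± 0.069) and Ifit3 (3.74 ± 0.17) were below background on every array. Ifit1 (4.48 ± 0.72) passed background in repeat 2 alone. Adar, an RNA editing enzyme, read 7.62, 8.09 and 7.79, while Adarb1, a second such enzyme, read 5.97, 5.95 and 6.11.

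**Figure D4:**
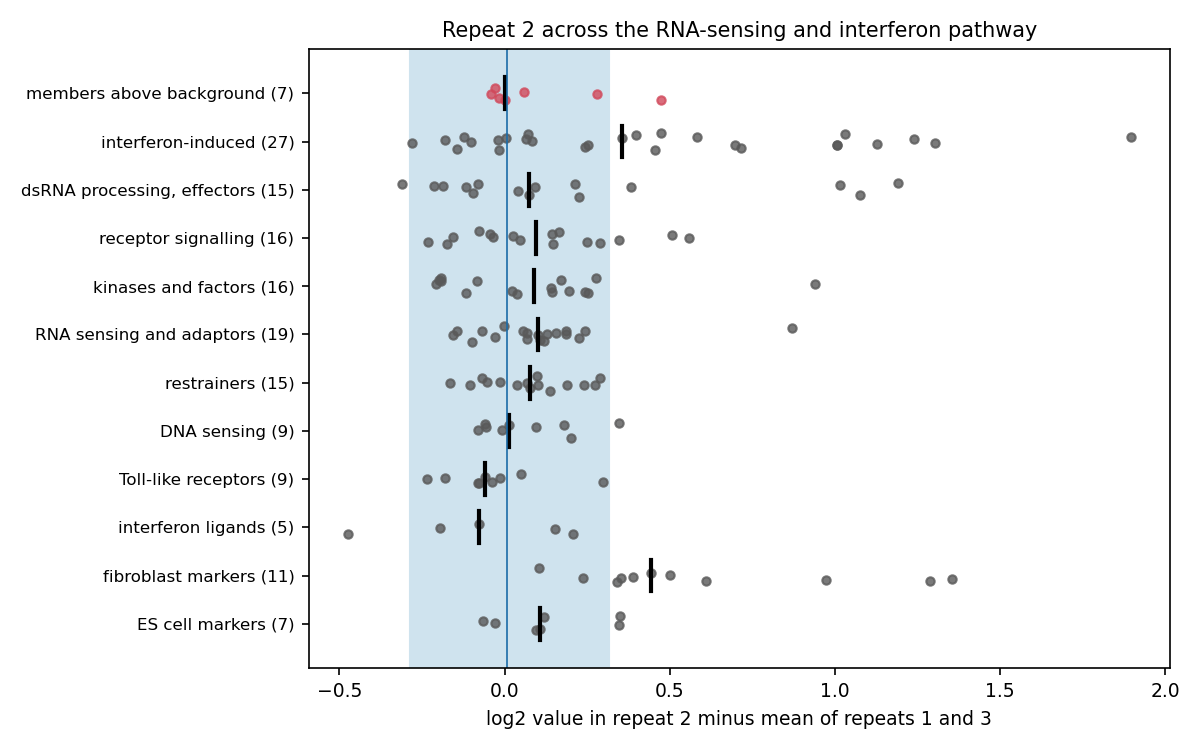
Log2 value in repeat 2 minus the mean of repeats 1 and 3 (x axis) for genes above background on all 3 arrays (points), by list (rows, number of genes in parentheses), with a bar at each list's median. The shaded band spans the 5th to 95th percentile over all such genes; the median of the interferon-induced list is 0.36 and that of the 7 members is 0.0021.

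Most fibroblast markers were highest in repeat 2 as well. Of 13 measured, 11 were above background on all arrays, and 10 of these were highest in repeat 2, against 36.9% of all genes. Lum was below background on every array, and S100a4 read 4.98, 4.55 and 5.01, lowest in repeat 2. The summed intensity of the 13 was 3303, 4621 and 3459 in repeats 1, 2 and 3. The median difference of the 11 in repeat 2 was 0.44, against 0.0064 over all genes. Of 12 tested, 2 passed the limma variance test, Acta2 among them (adjusted p = 0.00828). The count was 0 without repeat 1, without repeat 2 or without the intensity trend. Col1a1 read 8.42, 9.11 and 8.59, and Acta2 7.57, 9.11 and 8.07. Of 11 blood and immune markers 4 were above background on all arrays. These were Laptm5 (8.98 ± 0.23), Cd68 (7.33 ± 0.11), Coro1a (6.42 ± 0.037) and Cd3e (5.50 ± 0.18), and the first 3 also passed the higher limit. The other 7, the pan-leukocyte gene Ptprc among them, were below background on every array. The summed intensity of the 11 was 873, 858 and 1014 in repeats 1, 2 and 3. The part of other cells in the repeat 2 values of Ddx58, Ifnar2 and the interferon-induced genes was not tested, and in RNA of whole cultures fewer cells of a type and less RNA per cell cannot be told apart.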

How the data were processed

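Total RNA of 3 repeats was extracted with Trizol and biotin-labelled, per the labels' protocols, and hybridised to 1 array each. The deposited values are linear intensities per probe set. The submitters' processing notes name GCOS 1.4. How background was corrected and values normalized is not given in the sources used here. Deposited intensities were turned to log2 without further scaling. Of 26730 probe sets, 20764 had 1 gene symbol, 1419 several and 4547 none in the platform annotation, which can be old, and only those with 1 symbol were used. Identifiers of 20678 matched RefSeq (GRCm38.p6), and 0 symbols changed. Probe sets of a gene were averaged.

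The members, lists, motifs and rules were chosen with earlier results of these data known. The text names all 9 members and the 5 genes most like the member with the largest SD. From each list it takes names among the first 3 measured genes and the largest SD among genes above background. It also takes names from whichever side of the background limit held fewer genes, if 5 or fewer. Ifngr2 was added for its position, and Tlr9 and Tlr12 because they lay between the limits as Tlr2 did. The variance test (limma 3.58.1 in R 4.3.3, intercept-only fit, trended robust prior, F with 2 and 9.86 degrees of freedom) took the 13596 genes that passed background on 1 array or more, adjusted by Benjamini-Hochberg at 0.05. It was checked on simulated data that had no intensity trend. The shifts there were larger than any member's range, so its power for smaller differences was not checked. Other steps ran in Python 3.11.15 with pandas 2.3.3. Alternatives were other background limits, quantile normalization, median centring, the highest probe set, other priors, all named genes, a pseudocount of 16 and leaving out each repeat.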

Additional observations from a re-analysis of the deposited data

How the results depend on the processing

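The count of 7 of the 9 genes above background was the same under all 8 alternatives, and no member tested passed the variance test under any of 9, with an adjusted p for Ddx58 of 0.507 to 0.997. For Ifih1, tested under 8 of them, it was 0.808 to 0.998. Over all genes the variance test called 22, against 0 without repeat 1, 34 without repeat 2, 11 without repeat 3, 10 without the robust prior, 1 without the trend, 13 after quantile normalization and 39 after median centring. Ifih1 passed no array at the 99th percentile of the receptor genes or at the limit of other silent families. At these 2 limits the Toll-like list kept 2 and 1 of 9 genes, interferon ligands 2 and 0 of 5, kinases and factors 10 and 8 of 16 and endothelial markers 2 and 1 of 4, and interferon-induced genes kept 10 of 27 at the second. A pseudocount of 16 raised the log2 level of 8 of the 9 genes by more than 1 SD, since it adds to low intensities. The difference of repeat 2 changed sign for Ifnar1 after quantile normalization (-0.036) and for Mavs after median centring (0.0022). No paired analysis was possible because the labels give 1 group. The number of arrays, and signal close to background for Tlr3 and Ifih1, limit what can be read.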

Other observations

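DNA sensing genes, the products of only some of which feed into the same kinase and factor as Mavs, lay on both sides of the background limit. Of 11 measured, 9 were above background on all arrays and 8 passed the higher limit, against 71.4% and 44.4% of all genes. The cytosolic DNA sensor gene Cgas was below background on every array at 3.75 ± 0.022 (n = 3), and its adaptor gene Sting1 passed on 2 arrays at 4.88, 4.57 and 4.64. Zbp1, a sensor of left-handed nucleic acid helices, read 5.63 ± 0.12, between the limits, and Rnaseh2b, of an enzyme that removes RNA from hybrids with DNA, read 8.12, 8.49 and 8.16. Cgas thus lay below the lower limit on all 3 arrays, as Tlr3 and Dhx58 did, and Sting1 around it, as Ifih1 did.

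The ISRE core found in the Ifih1 and Ddx58 promoters was also set against the repeats over all genes, as a description with no test and with the pattern chosen after the values were seen. Of 27 measured interferon-induced genes with a promoter entry, 10 held it (37.0%). Among those above background, the median difference of repeat 2 from the others was 0.87 for the 8 with the core and 0.16 for the 14 without it, and 6 of the 8 and 8 of the 14 were highest in repeat 2. Over genes above background at large, it was 0.015 for the 331 with the core and 0.0076 for the 9770 without it, and 39.6% and 37.3% of them were highest in repeat 2.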
